A study of Mus musculus with 8 samples.

Results

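The matrix metalloproteases (MMPs), the ADAMTS proteases and their tissue inhibitors (TIMPs) were examined in bulk RNA sequencing of mouse femoral shaft bone. The 40 genes were taken by name as 17 MMP, 19 ADAMTS and 4 TIMP genes, from a count table of 49315 gene IDs, and all 40 matched 1 ID each. The 8 libraries came from male C57BL6 mice aged 24 weeks, 4 of them wild type (WT) and 4 Girk3-/- (labelled Girk3 KO, here KO). Girk3 is a potassium channel subunit encoded by Kcnj9, and the title of the series links its loss to osteoblast maturation and bone mass. The ends of each femur were cut off and the marrow was rinsed out before RNA extraction, so the samples held bone with whatever muscle, periosteum and marrow remained. The labels name neither the deleted part of Kcnj9 nor littermate status, and no tissue-specific Cre is mentioned.

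MMPs and ADAMTS enzymes are zinc-dependent proteases that cut proteins of the extracellular matrix. In bone, collagenases such as MMP13 open the collagen triple helix, gelatinases such as MMP2 and MMP9 cut the denatured chains, and membrane-type enzymes such as MMP14 work at the cell surface. Most are made as inactive proenzymes. ADAMTS enzymes carry thrombospondin repeats that dock them to the matrix, and they process procollagens, large aggregating proteoglycans or microfibril proteins. TIMPs bind the active site of MMPs, and TIMP3 also inhibits several ADAMTS and ADAM enzymes.

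Mmp13, Mmp12, Mmp3, Mmp10 and Mmp8 lie within 1 cluster on chromosome 9 (GRCm38), between 7272514 for the start of Mmp13 and 7568485 for the end of Mmp8. The 250 bases before the RefSeq start (GRCm38.p6) of 3 of them are shown because these neighbours differed widely in level, as given below. All 3 are read from the plus strand, at chr9:7272264-7272513 for Mmp13, chr9:7445572-7445821 for Mmp3 and chr9:7558179-7558428 for Mmp8. Capitals mark matches, on either strand, to the AP-1 motif TGANTCA, the RUNX core ACCACA and the TATA box TATAAA. RUNX factors include RUNX2, which directs osteoblast development.
Mmp13: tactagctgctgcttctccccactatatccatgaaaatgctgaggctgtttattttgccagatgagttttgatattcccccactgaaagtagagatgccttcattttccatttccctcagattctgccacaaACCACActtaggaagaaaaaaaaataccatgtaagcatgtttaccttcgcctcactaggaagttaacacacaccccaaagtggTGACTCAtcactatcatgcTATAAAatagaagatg
Mmp3: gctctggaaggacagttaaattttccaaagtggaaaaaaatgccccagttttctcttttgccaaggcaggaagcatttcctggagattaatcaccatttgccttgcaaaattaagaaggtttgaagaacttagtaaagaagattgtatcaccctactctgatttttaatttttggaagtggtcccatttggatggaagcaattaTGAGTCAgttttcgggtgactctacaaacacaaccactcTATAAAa
Mmp8: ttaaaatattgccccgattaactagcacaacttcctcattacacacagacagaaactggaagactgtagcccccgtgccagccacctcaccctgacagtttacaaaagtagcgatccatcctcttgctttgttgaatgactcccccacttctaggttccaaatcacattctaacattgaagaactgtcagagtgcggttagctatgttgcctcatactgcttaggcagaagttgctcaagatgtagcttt
Mmp13 held a match to each of the 3 motifs, the RUNX core beginning 118 bases, the AP-1 motif 35 bases and the TATA box 16 bases before the start. Mmp3 held an AP-1 motif 46 bases and a TATA box 7 bases before the start, and Mmp8 held none of the 3. Of the 26 members with a RefSeq promoter entry, 4 had an AP-1 match, and all of these (Mmp3, Mmp10, Mmp12 and Mmp13) lie in the cluster. The RUNX core was found in Mmp13, Mmp14 and Mmp23, and the TATA box in Mmp3, Mmp10, Mmp13 and Adamts1. Among all 32851 promoter entries of the same length, 6.75% held the AP-1 motif, 14.0% the RUNX core and 12.4% the TATA box. The motifs do not overlap each other in the 3 sequences shown. A relation of the motifs to the levels of these genes was not tested.

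Library totals ranged from 30087749 to 36553713 counts. Levels are CPM, the usual depth-normalised counts, on library sizes scaled by TMM (trimmed mean of M values), and in comparisons between genes CPM per kilobase of exon. Kcnj9 had 6 to 23 counts in WT and 0 to 8 in KO libraries, too few to check the genotypes. WT replicate 4 and KO replicate 4 stood at opposite ends of the first principal component (53.5 and -60.5, with 33.5% of the variance). Markers of osteoblasts (summed level 5706 to 13404 CPM in WT and 6275 to 11096 in KO) and osteocytes (171 to 304 and 111 to 236 CPM) were present in every library. Markers of other cells were present too. The 15 skeletal muscle markers together took 73626 to 137001 CPM in WT and 116157 to 194730 CPM in KO, and the 10 neutrophil markers 1479 to 5143 and 719.6 to 7134 CPM. Of the muscle markers 12 of 15 had a positive log2 fold change of KO over WT (median 0.42), and of 10 adipocyte markers all 10 (median 0.63), with overlapping mean marker levels (exact permutation p = 0.171 and 0.543). Neutrophil markers were positive in 9 of 10 cases (median 0.49, with overlapping mean marker levels and exact permutation p = 0.8). Smooth muscle and pericyte markers were positive in 6 of 10 cases (median 0.27, exact permutation p = 0.2). Of these 10, 5 had an unadjusted edgeR p under 0.05, 1 of them lower, beside 18.2% of all genes. Markers of osteocytes were negative in 8 of 10 cases (median -0.29), of osteoblasts in 7 of 10 (-0.20), of erythroid cells in 7 of 10 (-0.46), of B cells in 6 of 10 (-0.37) and of chondrocytes in 4 of 7 tested (-0.37). Their mean marker levels overlapped too (exact permutation p = 0.343, 0.714, 0.714, 0.257 and 0.686 in that order). The part of these cells in the results below was not tested, other than by muscle and neutrophil covariates. Of 10 chondrocyte markers 4 were under 1 CPM on average, and no marker was at 0 in all libraries. In whole tissue, fewer cells of a type and less RNA per cell cannot be told apart.

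The 3 families covered a wide range of levels in the bone shaft. Per kilobase, Mmp2, Mmp13 and Mmp9 led the MMPs, with 68.7 ± 4.10, 64.2 ± 20.3 and 47.6 ± 11.5 CPM per kb in WT (SD, n = 4 each). Mmp13 overlapped the other 2 between libraries, so its place among them is not resolved, and the lowest WT value of Mmp2 lay barely above the highest of Mmp9. Mmp14 followed at 29.1 ± 4.22 and Mmp8 at 16.3 ± 7.48 CPM per kb. Timp2 was the leading inhibitor at 57.4 ± 5.41 CPM per kb, above Timp1 at 19.1 ± 2.30, Timp3 at 10.2 ± 1.76 and Timp4 at 4.68 ± 0.909. The leading ADAMTS genes were Adamts10 (13.5 ± 1.75), Adamts2 (7.64 ± 0.742) and Adamts1 (7.02 ± 1.09 CPM per kb). Within the chromosome 9 cluster, WT levels were 64.2 for Mmp13, 16.3 for Mmp8, 0.480 for Mmp3, 0.0352 for Mmp12 and 0.00869 CPM per kb for Mmp10. Mmp3 was between 0.733 and 1.25 CPM in every library. In KO the order of the TIMPs was the same, while Adamts1 (7.09) stood above Adamts2 (6.94 CPM per kb), a difference within their spread.

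**Figure D1:**
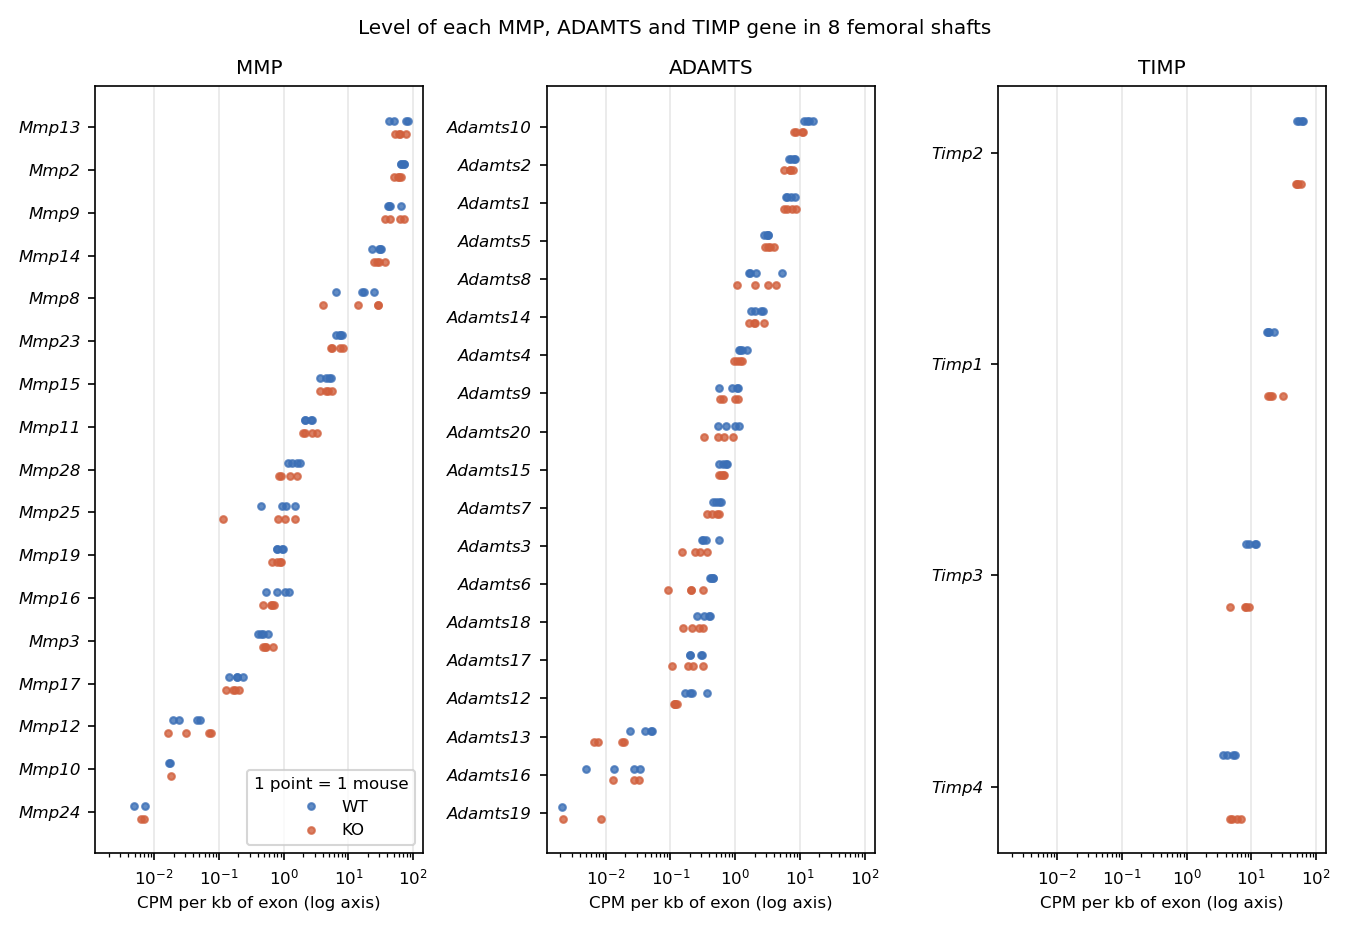
Level of each gene in CPM per kilobase of exon (log axis) in 4 WT (blue) and 4 KO (red) libraries, 1 point per mouse, genes ordered by mean level within family. Libraries with no count are not drawn. Mmp13, Mmp2, Mmp9 and Timp2 stand at the high end, and Mmp10, Mmp24 and Adamts19 at the low end with at most 4 counts in a library.

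No gene of the 3 families passed the test between KO and WT, and the ADAMTS genes leaned lower in KO. Of the 40 genes, 35 passed the low-count filter. edgeR's quasi-likelihood test, adjusted by Benjamini-Hochberg over all 17450 genes tested, called 0 of them, where 0.0115% of all genes were called. DESeq2 called 2 of 34 with an adjusted p (Adamts6 and Adamts12, both lower), or 5.88%, beside 6.48% of all genes in either direction and 2.57% lower, and limma-voom called Adamts6 alone, beside 4.04% in either direction and 1.63% lower. Unadjusted edgeR p values under 0.05 were found for 3 of the 35 (Adamts6, Adamts10 and Adamts12, all lower in KO), or 8.57%, and for 18.2% of all genes, 8.59% in that direction. edgeR also called 0 members, beside 0.0172% of all genes with library totals, 0.0136% under a stricter filter and 0.00573% with a replicate block. Without 1 library at a time it called 0 members, beside 0.0112%, 0.0113%, 0.0168%, 0.0169%, 0.017% or 0.0224% of all genes. In total 25 of the 35 had a negative log2 fold change, with a median of -0.13, and 51.4% of all genes were negative, with a median of -0.01. By family, 14 of 16 ADAMTS genes were negative (median -0.18), 9 of 15 MMPs (median -0.02) and 2 of 4 TIMPs (median 0.05). With library totals in place of TMM, which moved the median of all genes to -0.11, 15 of 16 ADAMTS genes were negative. With each library's trend in exon length and GC content removed, 9 of 16 were (median -0.06).

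**Figure D2:**
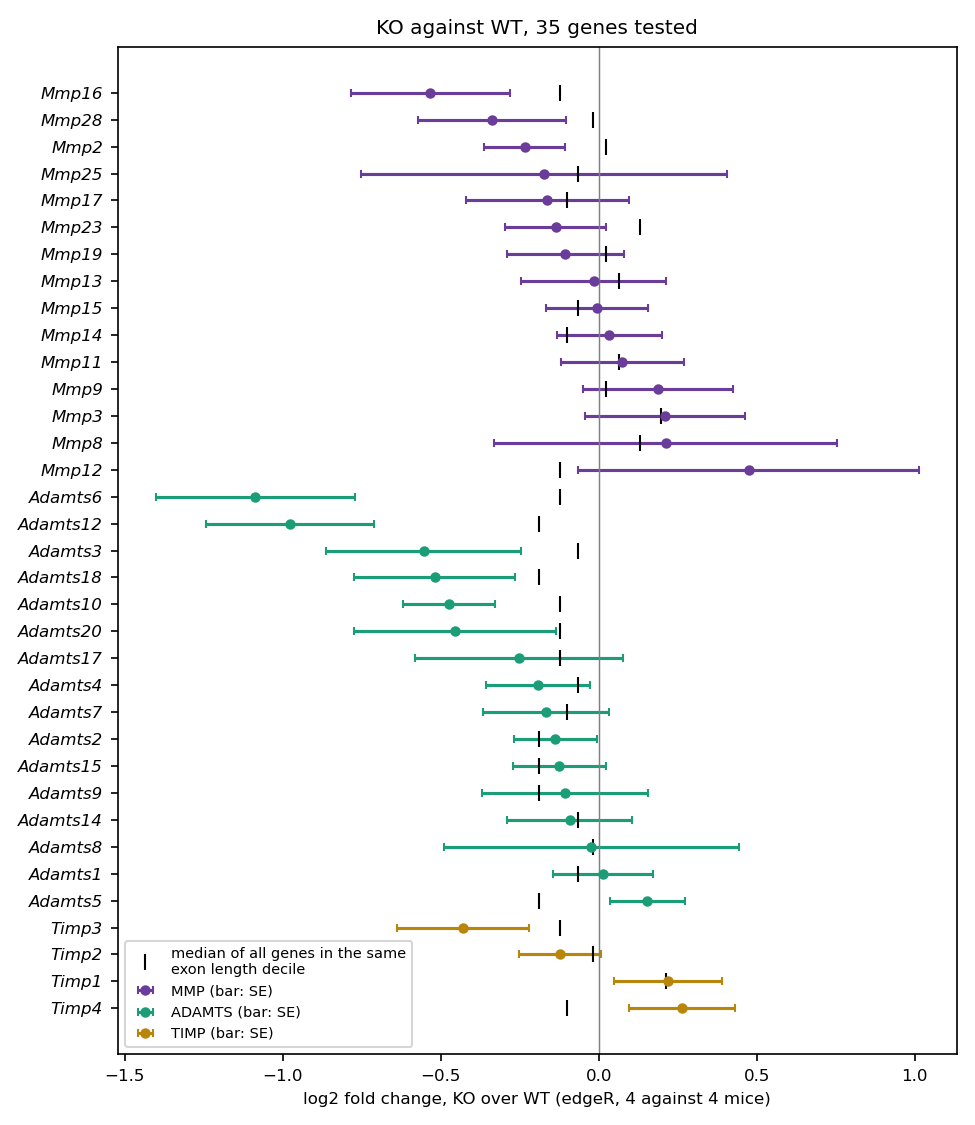
Log2 fold change of KO over WT with its standard error for the 35 genes tested, by family, with the median fold change of all tested genes in the same decile of exon length as a black tick. Adamts6 (-1.09) and Adamts12 (-0.98) lie farthest from 0, both below their tick.

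Adamts6, Adamts12 and Adamts10 were each lower in all 4 KO than in all 4 WT libraries, and so was the gelatinase gene Mmp2. These 4 of 35 tested members (11.4%) compare with 5.77% of all tested genes that were lower without overlap, and 0 members were higher without overlap, against 7.34% of all genes. WT replicate 4 and KO replicate 4 removed together gave 7 members lower without overlap, while the share of all genes rose to 14.7%. The same removal gave 2 members higher without overlap (Mmp9 and Adamts5), and removal of KO replicate 4 alone gave 1 (Adamts5). For these removals the share of all genes higher without overlap was not computed, so these 2 counts are not read as results about the members.

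ADAMTS6, a close relative of ADAMTS10, is a protease linked to microfibrils and heart development. Adamts6 (ENSMUSG00000046169, chromosome 13, 104287835 to 104496695, plus strand) stood at 3.52, 3.57, 3.34 and 3.18 CPM in WT replicates 1 to 4. In KO replicates 1 to 4 it stood at 0.706, 1.62, 1.5995 and 2.5002 CPM. The WT values were tight, and the KO values spread between KO replicate 1, the lowest, and KO replicate 4, the highest. Means of 3.40 ± 0.178 for WT and 1.605 ± 0.732 CPM for KO mice (SD, n = 4) gave a log2 fold change of -1.09 with a SE of 0.32 (adjusted p = 0.125 by edgeR). An exact permutation test gave p = 0.0286, which no arrangement of 4 and 4 mice can undercut, unadjusted over the 40 genes tested this way. Adjusted p was 0.0177 in DESeq2 and 0.0307 in limma-voom. Adamts6 also passed in edgeR with the muscle markers as a covariate (log2 fold change -1.42, adjusted p = 0.0303, with 8.6% of all genes called). The neutrophil covariate gave -1.11 (adjusted p = 0.0482, 2.37% of genes called), and omission of both replicates 4 gave -1.41 (adjusted p = 0.0486, 2.62% called). With any single library left out Adamts6 did not pass (edgeR adjusted p = 0.109 to 0.282). Without KO replicate 1 the log2 fold change was -0.84 (adjusted p = 0.185), and with the replicate block it was -1.19 (adjusted p = 0.481).

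ADAMTS12 is a protease of cartilage matrix proteins such as COMP. Adamts12 (ENSMUSG00000047497, chromosome 15, 11064790 to 11349231, plus strand) was at 3.96, 2.166, 1.85 and 2.32 CPM in WT replicates 1 to 4, and at 1.25, 1.29, 1.29 and 1.40 CPM in KO. Here the KO values were tight and WT replicate 1 was the highest of all. The log2 fold change was -0.98 with a SE of 0.27 (adjusted p = 0.112 by edgeR, DESeq2 adjusted p = 0.0219, limma-voom adjusted p = 0.0908). Counts were low for both genes, 22 to 137 per library for Adamts6 and 37 to 135 for Adamts12.

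ADAMTS10 takes part in fibrillin microfibril assembly, and mutations in its gene cause Weill-Marchesani syndrome with short stature. Adamts10 (ENSMUSG00000024299, chromosome 17, 33524204 to 33553782, plus strand) was the most abundant ADAMTS gene per kilobase. It was at 95.1, 113.9, 105.9 and 129.3 CPM in WT and at 92.8, 87.7, 68.2 and 70.9 CPM in KO replicates 1 to 4. The gap between the groups was narrow, 95.1 in WT replicate 1 against 92.8 in KO replicate 1. The means were 111 ± 14.4 and 79.9 ± 12.2 CPM (SD, n = 4 each), with a log2 fold change of -0.48 with a SE of 0.15 (adjusted p = 0.138 by edgeR). DESeq2 gave an adjusted p of 0.0506 and limma-voom 0.0549. With the exon length and GC trend of each library removed the log2 fold change was -0.30 (adjusted p = 0.416), and with the muscle covariate it was -0.31 (adjusted p = 0.125), both by edgeR.

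**Figure D3:**
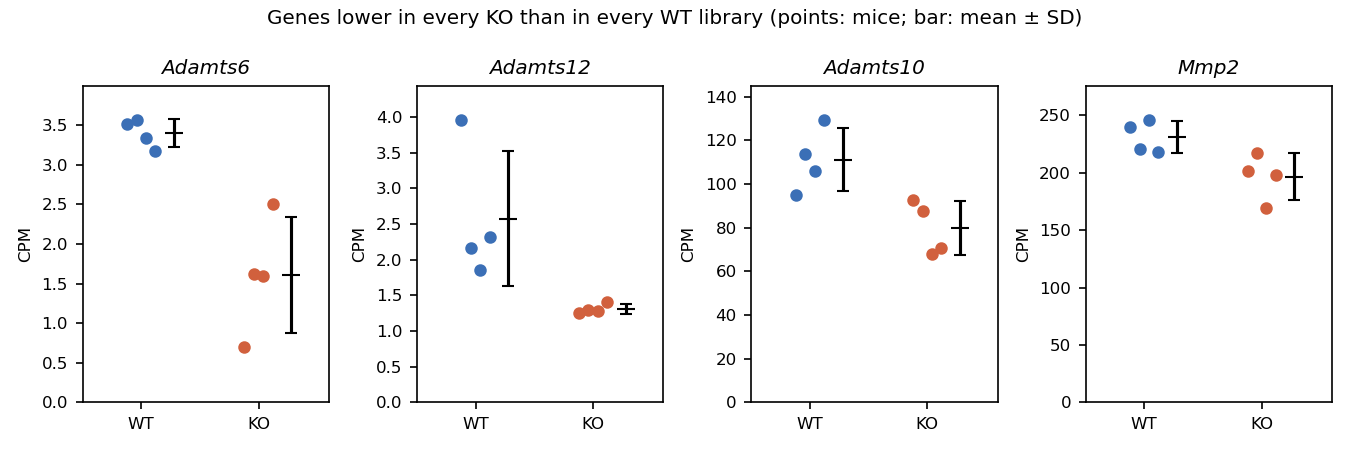
CPM of Adamts6, Adamts12, Adamts10 and Mmp2 in each library, with mean and SD beside the 4 points of each genotype and axes from 0. In each panel all 4 KO points (red) lie below all 4 WT points (blue), by a narrow margin for Adamts10 and Mmp2.

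The other tested ADAMTS genes overlapped between genotypes. The procollagen N-proteinases, which trim the amino-terminal propeptide of fibrillar procollagens, are Adamts2, Adamts3 and Adamts14. Adamts2 was at 79.1, 74.7, 63.6 and 67.8 CPM in WT and 66.7, 73.8, 66.3 and 52.5 CPM in KO mice (-0.14 ± 0.13 on the log2 scale, value and SE, adjusted p = 0.630 by edgeR, exact permutation p = 0.314). Only KO replicate 4 lay below the WT range. Without it the log2 fold change was -0.043. Adamts3 and Adamts14 had log2 fold changes of -0.55 and -0.09. Proteases of aggrecan and versican include Adamts1, Adamts4, Adamts5, Adamts8, Adamts9, Adamts15 and Adamts20. Adamts1 was at 45.0, 38.2, 32.6 and 33.0 CPM in WT and 33.8, 30.03, 40.5 and 46.1 CPM in KO mice (0.01 ± 0.16 on the log2 scale, value and SE, adjusted p = 0.976 by edgeR). Adamts5 (0.15) and Adamts1 were the 2 ADAMTS genes with a positive value, and the sign of Adamts1 turned to -0.10 with library totals in place of TMM. Adamts4 lies 1.06 Mb from Kcnj9 on chromosome 1, the only member on that chromosome, and its mean was 6.19 ± 0.867 CPM among WT mice and 5.42 ± 0.698 among KO mice (SD, n = 4). Adamts7, the relative of Adamts12, had a log2 fold change of -0.17. Adamts17 (-0.25), Adamts18 (-0.52), Adamts20 (-0.45), Adamts9 (-0.11), Adamts15 (-0.13) and Adamts8 (-0.02) were also negative without passing. Their edgeR adjusted p values ran from 0.316 for Adamts18 to 0.987 for Adamts8.

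Among the MMPs, the gelatinase gene Mmp2 was lower in KO without overlap but did not pass. Mmp2 (ENSMUSG00000031740, chromosome 8, 92827291 to 92853420) stood at 240.4, 221.2, 246.2 and 218.3 CPM in WT replicates 1 to 4. In KO replicates 1 to 4 it stood at 201.8, 217.5, 169.1 and 198.5 CPM. WT replicate 4 and KO replicate 2, at 218.3 and 217.5, nearly met, and with DESeq2 size factors they overlapped. The log2 fold change was -0.24 with a SE of 0.13 (adjusted p = 0.365 by edgeR), or 0.850 of the WT level. The exact permutation p of 0.0286, unadjusted, is the lowest possible here and only restates the lack of overlap. Summed markers of fibroblasts and periosteum, cells known to express Mmp2, ranged from 1664 to 2088 CPM in WT and from 1460 to 2499 CPM in KO. Mmp2 was not seen to follow the mean level of these markers across the 8 libraries (Pearson r = 0.26, exact permutation p = 0.500, adjusted p = 0.722). Without WT replicate 1 and KO replicate 1 Pearson r was 0.86.

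The collagenase gene Mmp13, a product of osteoblasts and hypertrophic chondrocytes, did not differ by more than the spread between mice. Mmp13 (ENSMUSG00000050578, chromosome 9, 7272514 to 7283331) was at 114.6, 136.6, 209.1 and 226.0 CPM in WT and at 167.9, 210.4, 162.6 and 138.2 CPM in KO. The KO range lay inside the WT range. The log2 fold change was -0.02 with a SE of 0.23 (adjusted p = 0.981 by edgeR, exact permutation p = 1), and its sign turned in several refits. The membrane collagenase gene Mmp14, which activates proMMP2, was at 136.1, 179.3, 185.4 and 191.7 CPM in WT and 221.4, 165.8, 147.2 and 174.4 CPM in KO mice (0.03 ± 0.17 on the log2 scale, value and SE, adjusted p = 0.944 by edgeR). KO replicate 1 was the highest and WT replicate 1 the lowest. Mmp13 and Mmp14 were not seen to follow the osteoblast markers across the 8 libraries (Pearson r = -0.17 and 0.11, exact permutation p = 0.669 and 0.795).

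Mmp8, the neutrophil collagenase gene, varied more between mice than between genotypes. It was at 39.9, 41.8, 15.9 and 60.0 CPM in WT replicates 1 to 4 and at 69.8, 34.0, 69.2 and 9.74 CPM in KO replicates 1 to 4. KO replicate 4 and WT replicate 3 were the lowest. WT replicate 4 and KO replicates 1 and 3 were the highest, at 60.0 CPM or more, and the others were at 41.8 CPM or less. Those highest libraries also had the highest neutrophil and the highest osteoclast marker levels. The log2 fold change was 0.21 with a SE of 0.54 (adjusted p = 0.879 by edgeR). Across the 8 libraries Mmp8 varied with the mean level of the 10 neutrophil markers, with Pearson r = 0.98 (exact permutation p = 0.000397, adjusted p = 0.00516 over 13 pairs of gene and marker list). Spearman rho was 0.93 (exact permutation p = 0.00223, adjusted p = 0.0290), and Pearson r was 0.90 without WT replicate 3 and KO replicate 4, the libraries farthest from the median of the markers. With the neutrophil level as a covariate the log2 fold change of Mmp8 was -0.19, and its SE fell from 0.54 to 0.14.

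Mmp25, a membrane-anchored enzyme of leukocytes, was at 4.93, 5.80, 2.33 and 7.94 CPM in WT and 5.52, 4.41, 8.06 and 0.606 CPM in KO. It also ran with the neutrophil markers, with Pearson r = 0.93 (exact permutation p = 0.00186, adjusted p = 0.0121) and Spearman rho = 0.76 (exact permutation p = 0.0368, adjusted p = 0.0956). Pearson r was 0.63 without WT replicate 3 and KO replicate 4, so the relation rested in part on those libraries. Neutrophils store MMP8 and MMP9 in granules. On the log2 CPM scale the mean of these markers ran from 6.17 to 8.02 among WT libraries (7.10 ± 0.773, SD, n = 4) and from 5.13 to 8.36 among KO libraries (7.29 ± 1.501).

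Mmp9, the gelatinase gene of osteoclasts and neutrophils, stood at 147.1, 144.2, 153.3 and 229.2 CPM in WT replicates 1 to 4. In KO replicates 1 to 4 it stood at 224.8, 154.4, 256.8 and 132.1 CPM. Values fell into 2 sets, WT replicate 4 with KO replicates 1 and 3 at 224.8 CPM or more and the other 5 at 154.4 or less. The same 3 libraries had the highest neutrophil and the highest osteoclast marker levels, so the 2 sources cannot be told apart. Since the libraries form separate sets, no correlation is given for Mmp9. The log2 fold change was 0.19 with a SE of 0.24 (adjusted p = 0.730 by edgeR, exact permutation p = 0.571). It was 0.017 without KO replicate 3, 0.37 without WT replicate 4 and 0.52 with the muscle covariate. Summed osteoclast markers ranged from 549.6 to 1048 CPM in WT and from 606.9 to 940.9 in KO.

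**Figure D4:**
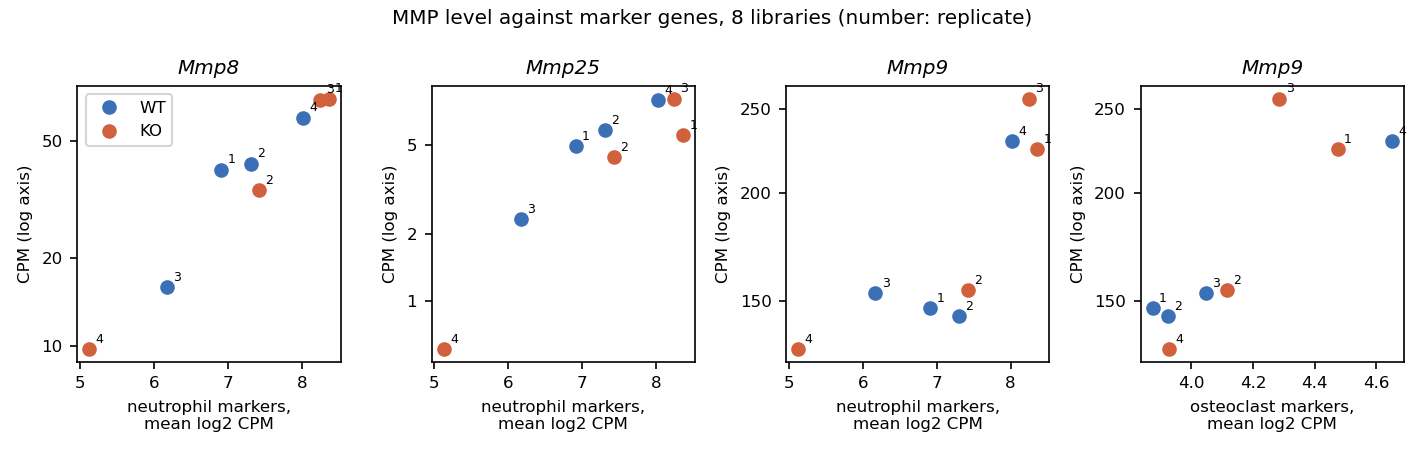
CPM (log axis) of Mmp8, Mmp25 and Mmp9 against the mean log2 CPM of 10 neutrophil markers, and of Mmp9 against 10 osteoclast markers, in 4 WT (blue) and 4 KO (red) libraries labelled by replicate. Mmp8 rises with the neutrophil markers, and Mmp9 has 3 high and 5 lower libraries in both of its panels. The same 3 libraries are the highest for Mmp8.

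The remaining MMPs were lower in level and did not pass. The membrane-type genes Mmp15, Mmp16 and Mmp17 had log2 fold changes of -0.01, -0.53 and -0.16. Of these, Mmp16 was at 10.6, 9.24, 4.59 and 6.75 CPM in WT and 6.10, 5.67, 5.58 and 4.20 CPM in KO (SE 0.25, edgeR adjusted p = 0.298). WT replicates 1 and 2 were the 2 highest, and WT replicate 3 lay within the KO range. Across libraries Mmp16 and the osteoblast markers had Pearson r = 0.78 (exact permutation p = 0.0247, adjusted p = 0.0643) and Spearman rho = 0.86 (exact permutation p = 0.0107, adjusted p = 0.04998), and r fell to 0.49 without WT replicate 3 and KO replicate 4. Mmp23 (-0.14), Mmp28 (-0.34) and Mmp19 (-0.11) had negative log2 fold changes. The stromelysin genes Mmp3 (0.21) and Mmp11 (0.07) had positive ones, as had the macrophage elastase gene Mmp12 (0.47), which rested on 4 to 17 counts per library. Mmp19 shares 789 of its 3533 exonic bases with Tmem198b on the other strand. Mmp11 turned to -0.04 with library totals in place of TMM.

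Among the inhibitors, Timp3 had the lowest log2 fold change and none passed. TIMP3 binds to the matrix. Timp3 (ENSMUSG00000020044, chromosome 10, 86300372 to 86349506) stood at 97.8, 91.5, 75.5 and 66.6 CPM in WT and at 37.6, 68.5, 66.0 and 73.9 CPM in KO. KO replicate 1 was far below the rest, and WT replicate 4 lay inside the KO range. The log2 fold change was -0.43 with a SE of 0.21 (adjusted p = 0.314 by edgeR, exact permutation p = 0.114). With the muscle covariate it was -0.68 (edgeR adjusted p = 0.0629). Timp2, which inhibits MMP2 and also helps MMP14 activate it, was at 232.4, 214.3, 248.0 and 199.7 CPM in WT and at 230.7, 203.7, 189.7 and 197.0 CPM in KO. The groups overlapped (-0.12 ± 0.13 on the log2 scale, value and SE, adjusted p = 0.672 by edgeR). Timp1 was at 15.9, 15.4, 19.9 and 16.7 CPM in WT and at 26.9, 18.5, 17.4 and 16.3 CPM in KO, with KO replicate 1 highest (0.22 ± 0.17 on the log2 scale, value and SE, adjusted p = 0.543 by edgeR). Without KO replicate 1 the log2 fold change of Timp1 was 0.035 and that of Timp3 was -0.26. KO replicate 1 was thus the highest for Timp1 and the lowest for Timp3. Timp4 had a WT mean of 27.6 ± 5.36 CPM and a KO mean of 33.1 ± 5.69 (SD, n = 4), 0.26 apart on the log2 scale (edgeR adjusted p = 0.443). Timp1, Timp3 and Timp4 each lie inside a synapsin gene on the other strand (Syn1, Syn3 and Syn2). Timp3 shares 1733 of its 8144 exonic bases with Syn3 and Timp4 90 with Syn2, and reads there could not be assigned without strand, whose setting in the counting is not given in the sources used here.

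The 5 members below the filter had few counts. Adamts13, the protease of von Willebrand factor, had 4, 8, 6 and 11 counts in WT and 1, 3, 3 and 1 in KO replicates 1 to 4. Its groups did not overlap, but the share of genes below the filter without overlap was not computed. An unfiltered edgeR fit of Adamts13 gave -1.63 on the log2 scale (SE 0.70, adjusted p = 0.360, with 0.228% of genes called). Adamts16 had 20 counts over the 4 WT libraries and 15 over the 4 KO libraries, Adamts19 had 1 and 5, Mmp10 had 2 and 1, and Mmp24 had 2 and 2. For a gene with no count in a group, 3 counts over its 4 libraries would equal 0.0215 CPM in WT and 0.0243 in KO, for counting error only.

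Related genes outside the 3 families were summarised from lists. No gene of the lists in this paragraph passed edgeR. For the counts called by the other tests, DESeq2 called 6.48% and limma-voom 4.04% of all genes in either direction. Of 12 ADAM proteases, membrane-anchored relatives of the ADAMTS enzymes, 11 were tested, 8 of them negative (median -0.15). DESeq2 and limma-voom each called 2, and those of DESeq2 were Adam12 (28.02 ± 3.73 CPM in WT and 16.7 ± 2.23 in KO, log2 fold change -0.75, edgeR adjusted p = 0.0728) and Adam19 (-0.40, edgeR adjusted p = 0.123). The ADAMTS-like proteins and papilin, which share the ADAMTS ancillary domains without the protease, were negative in 6 of 7 cases (median -0.14), with Adamtsl3 at -0.42 and Thsd4 at -0.37. Matrix substrates were negative in 20 of 23 tested cases (median -0.20), with 1 called by DESeq2 and 2 by limma-voom. Median exon lengths were 6145 bases for the ADAM, 7744 for the ADAMTS-like and 6943 for the substrate list. All genes had a median log2 fold change of -0.10 at 5629 to 6957 bases and -0.12 at 6960 to 9240 bases. The part of length in these lists was not tested. Fn1, encoding fibronectin, was at 243 ± 32.1 and 162 ± 21.5 CPM (log2 fold change -0.58, edgeR adjusted p = 0.102, DESeq2 adjusted p = 0.00898), and the perlecan gene Hspg2 had -0.51. Regulators and activators showed 9 of 19 positive and 10 negative (median -0.02). DESeq2 called 1 of them, Bsg, which encodes the MMP inducer basigin (0.29, DESeq2 adjusted p = 0.0338, higher in KO without overlap). Those with the smallest edgeR p were Lrp1, a receptor that clears MMPs and ADAMTS enzymes from the matrix, at -0.38 and the urokinase gene Plau at 0.34. Other matrix proteases of bone were positive in 8 of 15 cases (median 0.08), with Ctsl at 0.29 and Bmp1, the procollagen C-proteinase, at -0.24. Lower in KO without overlap were 2 of 11 ADAM genes, 2 of 23 substrates and 1 of 19 regulators, beside 5.77% of all genes. Higher without overlap were 1 regulator (Bsg) and 1 other protease (Ctsl), beside 7.34% of all genes. None of 6 other MMP genes passed the filter, and Mmp27 had the most with 88 counts in all 8 libraries.

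Fold changes of all genes ran with exon length in these libraries, and most ADAMTS transcripts are long. The median log2 fold change ran from 0.21 in the shortest decile of tested genes (38 to 1166 exonic bases) to -0.19 in the longest (9242 bases or more). The tested ADAMTS genes had 4613 to 15048 exonic bases, 11 of 16 of them in the upper 3 deciles, against 4 of 15 MMPs. Of the 16, 11 lay below the median of their own decile. With each library's trend in length and GC content removed, 9 of 16 ADAMTS genes were negative in place of 14, with a median of -0.06, and 20 of all 35 members in place of 25. Adamts6 and Adamts12 kept log2 fold changes of -1.02 and -0.82 then, with edgeR adjusted p of 0.191 and 0.194. Timp1, with 888 exonic bases the shortest member, went from 0.22 to -0.01. The part of transcript length in these differences was not tested further.

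**Figure D5:**
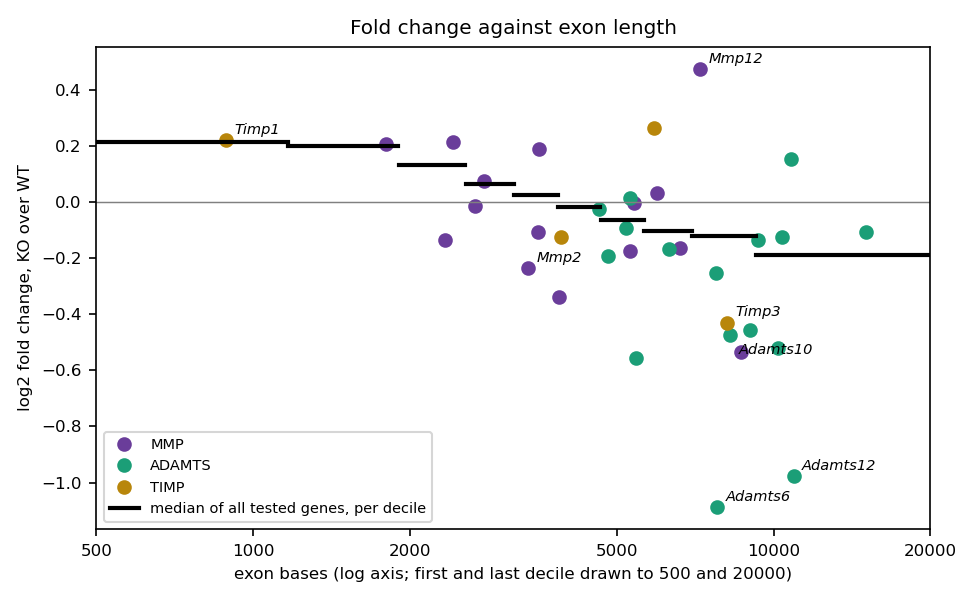
Log2 fold change of KO over WT against exonic bases (log axis) for the 35 genes tested, coloured by family, with the median of all tested genes in each length decile as black bars. The bars fall from 0.21 to -0.19, and Adamts6 and Adamts12 lie well below the bars at their length.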

How the data were processed

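RNA of femoral shaft bone from 4 WT and 4 KO mice was sequenced, 1 library per mouse as the labels state 4 mice per genotype. The authors deposited raw read counts per Ensembl gene, and per the submitters' processing notes the tools were bcl2fastq 2.17, STAR 2.5.2b and featureCounts of Subread 1.5.2 with build mm10. Not given in the sources used here: their settings, annotation and strand setting. Symbols, positions and exon lengths came from GENCODE M21 on GRCm38, which matched 49056 of 49315 IDs. No 2 libraries were alike (chi-square at least 39.4 per degree of freedom for each pair).

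The genotypes were compared by edgeR 4.0.16 under R 4.3.3 (quasi-likelihood, robust dispersion, TMM, filterByExpr, group as the only term), with p adjusted by Benjamini-Hochberg and a threshold of 0.05. Log2 CPM used a prior count of 2. Alternatives were DESeq2 1.42.0, limma-voom with quality weights (limma 3.58.1), other scalings and filters, marker covariates, removal of the length and GC trend (loess, span 0.3) and omitted libraries. The fits were tested on simulated data. Exact permutation tests were two-sided over 70 arrangements, or over all orders of 8 libraries for correlations. Not described above are the pairs of Mmp14 with osteoclast, Mmp12 with macrophage and Adamts1 with endothelial markers. Timp4 with adipocyte and with skeletal muscle markers are not described either. Adjusted p of Pearson r in these pairs ran from 0.387 to 0.724.

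The members and gene lists were chosen with earlier results of these data known. Described in full were the 3 members per family with the highest level per kilobase, those with an unadjusted edgeR p under 0.05 or called by DESeq2 or limma-voom, and Mmp8, Mmp9, Mmp13 and Mmp14. Other lists show the 2 genes with the smallest p. Values per library of Mmp16, Mmp25 and Adamts13, and the gene Bsg, were added after their values were seen. Promoter sequences are from RefSeq, with 26 of 40 members matched. An overlap of 1 member with another gene is not reported here.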

Additional observations from a re-analysis of the deposited data

Results flagged for a closer look

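In groups of 4 libraries, the highest or lowest value was compared with its nearest neighbour, and gaps above Dixon's 95% limit for their share of the group's range were noted. Of the 70 groups examined (35 genes in 2 genotypes), 2 had such a gap, and chance gives about 1 in 20, or 3.5. Mmp9 was at 229 CPM in WT replicate 4, with the other WT libraries between 144 and 153 CPM. Adamts8, a protease of aggrecan, was at 24.5 CPM in WT replicate 1, with the other WT libraries between 7.66 and 9.64 CPM. Without that library the log2 fold change of Adamts8 was 0.54 in place of -0.02 (edgeR adjusted p = 0.552).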

How the results depend on the processing

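edgeR called 2 of all 17450 genes and none of the members. DESeq2 called 992 genes, limma-voom 705, edgeR without the low-count filter 71, with the muscle covariate 1500, with the neutrophil covariate 414, and without both replicates 4 458. Leaving out single libraries gave 2 to 4. Among the members, DESeq2 called 2 (Adamts6 and Adamts12), and limma-voom, both covariates and the omission of both replicates 4 called 1 each (Adamts6). Members lower without overlap numbered 7 without both replicates 4, 3 with DESeq2 size factors and 4 to 6 without single libraries. Members higher without overlap numbered 2 without both replicates 4 and 1 without KO replicate 4. The share of all genes higher without overlap was not computed for these omissions, so these counts are not read as results about the members. The share of all genes lower without overlap rose too, from 5.77% to between 7.04% and 9.71% without single libraries and to 14.7% without both replicates 4. The TIMP median ranged from -0.075 to 0.12 without single libraries. Same-numbered libraries showed no shared deviation, with correlations from -0.57 to -0.17, and no library correlated best with its own number. The labels name no pairing of the mice, and this check cannot show that there was none. With the replicate number as a block 1 gene was called, and Mmp13 turned to 0.026.

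Over the member values, 378 kept direction and call, 34 turned sign and 6 passed only under the alternative, and without single libraries 252 kept and 28 turned. None of the members that turned had passed edgeR before or after. Under limma-voom they were Mmp11 (-0.075), Mmp13 (0.20), Mmp14 (-0.038), Mmp25 (0.027), Adamts1 (-0.053), Adamts9 (0.029) and Adamts14 (0.025). Library totals turned Mmp11 (-0.036), Mmp14 (-0.072) and Adamts1 (-0.097). The muscle covariate turned Mmp11 (-0.12), Mmp13 (0.22), Mmp17 (0.025), Mmp19 (0.041), Mmp23 (0.010), Mmp25 (0.56), Adamts1 (-0.16) and Adamts14 (0.12). The neutrophil covariate turned Mmp8 (-0.19) and Mmp15 (0.014). Removal of the length and GC trend turned Mmp15 (0.10), Adamts2 (0.037), Adamts8 (0.028), Adamts9 (0.085), Adamts14 (0.014), Adamts15 (0.035) and Timp1 (-0.0091). Omission of both replicates 4 turned Mmp11 (-0.13), Mmp13 (0.23), Mmp19 (0.017), Mmp25 (0.46), Adamts1 (-0.15) and Adamts14 (0.11). Without single libraries the log2 fold change ranged from -0.063 to 0.56 for Mmp8, -0.067 to 0.17 for Mmp11, -0.17 to 0.14 for Mmp13, -0.093 to 0.11 for Mmp14, -0.11 to 0.091 for Mmp15, -0.57 to 0.19 for Mmp25, -0.094 to 0.12 for Adamts1, -0.35 to 0.54 for Adamts8, -0.28 to 0.033 for Adamts9 and -0.27 to 0.016 for Adamts14. Depth limits the members below the filter and Mmp12.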
